A study of Mus musculus with 24 samples.

Results

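Gene expression was examined for 10 genes of the elastic fibre and of the lysyl oxidase family that crosslinks it: Lox, Loxl1, Loxl2, Eln, Fbn1, Fbln2, Fbln5, Mfap2, Mfap4 and Mfap5. Their probes were taken by symbol from the probe table of a bead array study of the mouse mammary gland, which gave 13 of its 25697 probes. Of the 10 genes, 9 had a probe, and Loxl2 had 0. Fbln2 and Mfap2 had 3 probes each, numbered here from 1 to 3, and the other genes had 1 each. A probe was tested when it was detected above the negative controls (detection p below 0.05) on at least 3 of 24 arrays. Of the 13 probes 12 passed, from 8 genes, out of 17878 passing probes in all, and the remaining probe, for Fbln5, was detected on 0 arrays.

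The arrays held RNA from the mammary gland of female mice of 2 genotypes, SNAI2+/+ (WT) and SNAI2 LacZ/LacZ (null). Snai2 encodes Slug, a Snail-family repressor of transcription, and the labels give the LacZ/LacZ genotype to all 4 null populations, stromal cells included, with no Cre or other driver named. From each genotype luminal, basal and stromal cells were sorted by their surface CD49f and Epcam, and a sample was also left unsorted, which made 8 groups of 3 arrays. Age, strain and any treatment are not given in the labels used here, and they do not tell whether each replicate was another animal, so a p-value here reflects the spread among the arrays, part of which may be technical.

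Elastic fibres give skin, vessels, lung and the tissue around mammary ducts their recoil. A core of elastin, encoded by Eln, is laid down on a scaffold of microfibrils built from fibrillin-1 (Fbn1) with associated glycoproteins (Mfap2, Mfap4, Mfap5), fibulins help to bring the elastin onto that scaffold, and the lysyl oxidases Lox and Loxl1 crosslink elastin and collagen chains. Fibroblasts and smooth muscle cells are the usual makers of these proteins, and basal cells of the mammary gland, which are contractile myoepithelial cells, share many smooth muscle genes.

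Slug recognises the E-box CAGGTG, which reads CACCTG on the other strand, so the promoter windows of the genes are shown here as context for the comparison of null with WT cells. RefSeq windows (GRCm38.p6, from 250 bases before to 50 bases after a transcript start) were at hand for 4 of the 10 genes, in 6 windows: Fbn1 and Fbln2 had 1 each, and Fbln5 and Mfap2 had 2 each. The letters CAGGTG or CACCTG stood in 0 of these 6 windows and in 20.2% of all 32851 windows in the table. The looser E-box CANNTG, which reads the same on both strands, includes the first motif and was searched after that result was seen, stood in 4 of the 6 windows and in 72.3% of all windows. The 250 bases before the start are printed for the 3 of these genes whose probes were higher in WT basal than in WT luminal cells (described further on), 5′ to 3′ in the gene's own direction, with CANNTG in capitals. For Fbln2 the printed stretch lay at chr6:91212514-91212763 on the plus strand, for the first Mfap2 window at chr4:141010174-141010423 on the plus strand and for Fbn1 at chr2:125506439-125506688 on the minus strand. The second Mfap2 window holds 0 CANNTG and is not printed.
Fbln2: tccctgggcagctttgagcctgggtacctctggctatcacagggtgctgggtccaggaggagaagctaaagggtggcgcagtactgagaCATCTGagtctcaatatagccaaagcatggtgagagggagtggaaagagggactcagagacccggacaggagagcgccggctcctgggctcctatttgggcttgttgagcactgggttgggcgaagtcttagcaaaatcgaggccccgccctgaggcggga
Mfap2: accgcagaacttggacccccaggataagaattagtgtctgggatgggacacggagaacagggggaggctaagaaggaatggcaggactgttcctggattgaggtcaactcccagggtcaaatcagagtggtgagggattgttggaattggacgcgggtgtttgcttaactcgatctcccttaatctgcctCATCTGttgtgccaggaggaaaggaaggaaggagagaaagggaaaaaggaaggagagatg
Fbn1: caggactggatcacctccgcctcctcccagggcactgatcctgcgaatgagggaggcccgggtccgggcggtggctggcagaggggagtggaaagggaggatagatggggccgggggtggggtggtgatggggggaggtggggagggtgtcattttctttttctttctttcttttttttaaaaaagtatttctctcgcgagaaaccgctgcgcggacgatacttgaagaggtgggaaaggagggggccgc
The printed stretches of Fbln2 and Mfap2 each hold a CATCTG, which begins 161 and 60 bases before the start. The CAGCTG of Fbn1 lies after the start and outside the printed stretch. These matches describe the letters of the windows and are not binding sites.

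The arrays had median raw intensities of 93.58 to 143.71, and 12634 to 15825 probes were detected. Summed levels of markers followed the labels of the sort: 7 basal epithelial genes (Krt5, Krt14 and others) summed to 19670 to 22180 intensity units in WT basal arrays and to 3478 to 5260 in WT luminal arrays, and 8 luminal genes (Krt8, Krt18 and others) to 12360 to 14720 in WT luminal and 2892 to 3545 in WT basal arrays. In null basal arrays the luminal genes summed to 3960 to 6253. The 8 fibroblast genes (Col1a1, Col1a2, Col3a1, Pdgfra, Dcn, Lum, Dpt, Thy1) summed to 20720 to 25090 in WT stromal and 24260 to 25900 in null stromal arrays. No probe of the table carried the symbol Snai2, so the deleted gene did not check the genotype labels. The third principal component, with 9.79% of the variance, put WT replicates 1 and 2 of every population and null replicate 1 of luminal, basal and stromal cells on its positive side and the other 13 arrays on its negative side, a split that no label gives. In the null unsorted group, replicate 3 stood apart, with a mean log2 level of the fibroblast genes of 10.72 against 9.12 and 9.21 in replicates 1 and 2, and of the 8 tested elastic fibre and lysyl oxidase genes of 8.72 against 6.60 and 6.99.

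The elastic fibre and lysyl oxidase genes shared their highest levels and differed in the epithelium. Probes of all 8 tested genes were brightest in stromal cells. Lox, Loxl1, Mfap4 and Mfap5 were low in both epithelial populations. Of these genes, all 3 WT arrays were detected only for Loxl1 in luminal cells and for Lox and Mfap5 in basal cells. By contrast, Eln, Fbn1 and Fbln2 and probes 2 and 3 of Mfap2 were higher in WT basal than in WT luminal cells. The WT calls of Fbn1 and Mfap2 were lost under several alternatives given below. In null cells only Eln and Fbln2 passed as higher in basal than in luminal cells. No probe passed the test between null and WT cells in any population. Levels are background-corrected log2 intensities, given for replicates 1, 2 and 3 in that order, and compared only within a probe. The size of a change depended on the background correction: without it, 40 of 74 member changes past the threshold were smaller by over 1.5 times on the log2 scale, and 4 no longer passed.

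**Figure D1:**
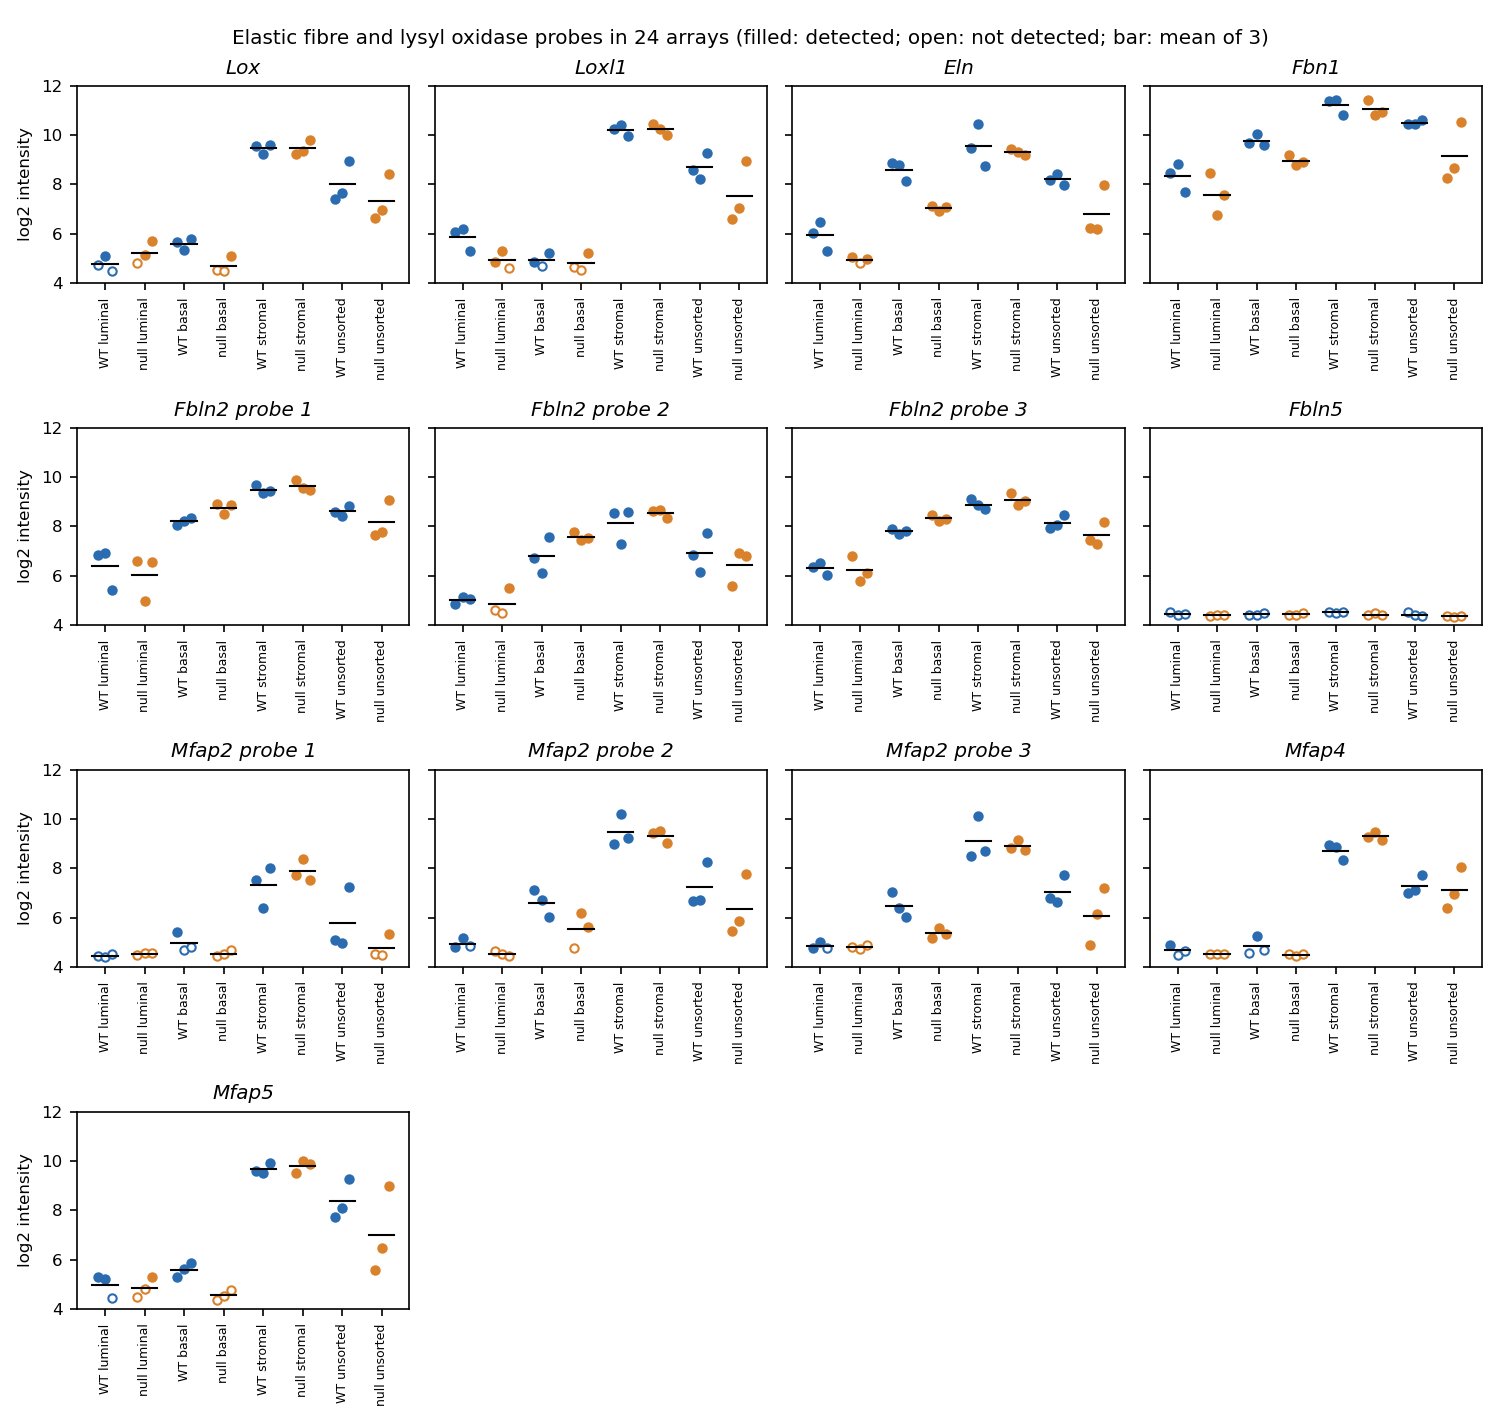
Log2 intensity (vertical axis) of each of the 13 probes in the 24 arrays, by group; each point is an array, filled where detected and open where not, and each bar is the mean of 3. All 12 tested probes have their highest means in stromal cells, and Eln has WT basal arrays at 8.88, 8.77 and 8.12 against null basal arrays at 7.13, 6.90 and 7.08.

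Lox encodes lysyl oxidase, the copper enzyme that oxidises lysines so that elastin and collagen can crosslink. Its levels were 9.55, 9.23 and 9.6 in WT stromal cells and 9.25, 9.37 and 9.80 in null stromal cells. WT basal arrays gave 5.64, 5.35 and 5.80, and WT luminal arrays gave 4.73, 5.08 and 4.47, of which only replicate 2 was detected. The stromal arrays of both genotypes were thus far above every epithelial array, and stromal means of 9.47 ± 0.29 in null and 9.46 ± 0.20 in WT cells (SD, n = 3) overlapped each other. Null basal arrays were at 4.50, 4.47 and 5.08, with replicate 3 alone detected, and null luminal arrays at 4.79, 5.15 and 5.69, with replicate 1 not detected. In the order of group means, unsorted cells came next after stromal cells, WT basal followed, and WT basal, null luminal, WT luminal and null basal each overlapped the next. Lox fell by 3.87 ± 0.40 (SE) on the log2 scale from WT stromal to WT basal cells (limma, adjusted p = 7.55e-07), and by 4.70 ± 0.40 from WT stromal to WT luminal cells (limma, adjusted p = 1.87e-07).

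Loxl1, a lysyl oxidase relative that is needed for elastic fibre renewal in mice, was at 10.26, 10.43 and 9.95 in WT stromal and 10.46, 10.26 and 9.99 in null stromal cells. WT luminal arrays were at 6.05, 6.20 and 5.30 and all were detected, while WT basal arrays were at 4.86, 4.68 and 5.23, with replicate 2 not detected. Loxl1 was therefore the tested gene whose order in WT epithelium ran the other way, with no overlap between luminal and basal arrays, but the basal over luminal change of -0.93 ± 0.42 did not pass (limma, adjusted p = 0.177). Null luminal arrays were at 4.85, 5.29 and 4.6, and null basal arrays at 4.63, 4.51 and 5.22, with replicate 3 alone of the latter detected. WT basal, null luminal and null basal arrays overlapped. The change from stromal to basal cells was -5.29 ± 0.42 on the log2 scale in WT (limma, adjusted p = 4.41e-08) and -5.45 ± 0.42 in null cells (limma, adjusted p = 1.32e-08), with 2 of 3 WT basal and 1 of 3 null basal arrays detected.

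Eln, the gene of tropoelastin, had levels of 9.49, 10.46 and 8.75 in WT stromal and 9.45, 9.32 and 9.19 in null stromal cells. WT basal arrays gave 8.88, 8.77 and 8.12, and WT luminal arrays gave 6.03, 6.47 and 5.28. WT basal cells thus overlapped WT stromal cells, whose replicate 3 lay below 2 of the basal arrays, and stood clear of luminal cells. Eln rose by 2.66 ± 0.42 from WT luminal to WT basal cells, a 6.34-fold difference (limma, adjusted p = 0.000131). Against WT stromal cells the basal change of -0.97 ± 0.42 did not pass (limma, adjusted p = 0.127), with an interval from -1.84 to -0.11 before adjustment, and passed without WT stromal replicate 3, at -1.38 (limma, adjusted p = 0.0315). With the replicate number as a block, the same change of -0.97 passed (limma, adjusted p = 0.0458), so whether Eln was lower in WT basal than in WT stromal cells depended on the model. Null basal arrays were at 7.13, 6.90 and 7.08, and null luminal arrays at 5.06, 4.79 and 4.98, replicate 2 of the latter not detected. In null cells Eln was also higher in basal than in luminal cells, by 2.09 ± 0.42 (limma, adjusted p = 0.00171), and lower in basal than in stromal cells, by -2.29 ± 0.42 (limma, adjusted p = 0.000312). The null basal over luminal change was 0.91 with no background correction (limma, adjusted p = 0.0597), and 2.07 and 2.10 within the positive and negative sides of the third principal component (limma, adjusted p = 0.0656 and 0.0512), and passed under none of the 3.

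Fbn1 encodes fibrillin-1, the main protein of the microfibril. It was measured on all 24 arrays, at 11.38, 11.45 and 10.82 in WT stromal, 9.69, 10.03 and 9.61 in WT basal and 8.48, 8.81 and 7.68 in WT luminal cells. These 3 WT groups did not overlap. Fbn1 rose by 1.45 ± 0.45 from WT luminal to WT basal cells (limma, adjusted p = 0.0343) and fell by 1.44 ± 0.45 from WT stromal to WT basal cells (limma, adjusted p = 0.0304). The basal over luminal call was lost when WT luminal replicate 1 or 3 or any WT basal replicate was left out, with adjusted p from 0.0592 to 0.156. The basal against stromal call was lost without WT basal replicate 1 or 3 or WT stromal replicate 1 or 2, with adjusted p from 0.0778 to 0.0976. With no filter on dim probes neither passed (limma, adjusted p = 0.0632 and 0.0564). Null stromal arrays were at 11.44, 10.83 and 10.94, null basal arrays at 9.18, 8.80 and 8.93 and null luminal arrays at 8.45, 6.76 and 7.55. The null groups kept the same order without overlap, and the basal over luminal change of 1.39 ± 0.45 did not pass (limma, adjusted p = 0.0542), though it did without null luminal replicate 1, at 1.82 (limma, adjusted p = 0.0161). It also passed with the replicate number as a block, as given in the last section.

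Mfap2 encodes MAGP-1, a small glycoprotein that binds fibrillin, and its probes 2 and 3 moved together, with a correlation of 0.988 over the 24 arrays. Probe 2 was at 9.0, 10.22 and 9.25 in WT stromal, 7.11, 6.71 and 6.01 in WT basal and 4.82, 5.17 and 4.83 in WT luminal cells. Probe 3 was at 8.50, 10.15 and 8.70, at 7.05, 6.37 and 6.01, and at 4.78, 5.0 and 4.78 in the same groups. By both probes the WT groups were separate, with basal cells in the middle. From WT luminal to WT basal cells probe 2 rose by 1.67 ± 0.51 (limma, adjusted p = 0.0314) and probe 3 by 1.62 ± 0.45 (limma, adjusted p = 0.0198). The call of probe 2 was lost when any WT luminal replicate or WT basal replicate 1 or 2 was left out (adjusted p from 0.0561 to 0.127), and that of probe 3 without WT luminal replicate 1 or 3 or WT basal replicate 1 (adjusted p from 0.0541 to 0.101). Both calls were also lost, at smaller changes, with no background correction (0.69 and 0.64, adjusted p = 0.179 and 0.173), with offset 50 (1.04 and 0.98, adjusted p = 0.0971 and 0.0789) and with the second deposited table (0.72 and 0.68, adjusted p = 0.162 and 0.153). With no filter on dim probes that of probe 2 was lost (limma, adjusted p = 0.0609). Probe 1 was detected in WT basal cells on replicate 1 alone, and its change of 0.53 ± 0.46 did not pass (limma, adjusted p = 0.543). In null cells probe 2 was at 9.45, 9.5 and 9.05 in stromal and 4.78, 6.18 and 5.61 in basal arrays, and was detected on 0 of 3 luminal arrays. Its basal over luminal change in null cells was 0.98 ± 0.51 and did not pass (limma, adjusted p = 0.282). Null stromal cells were at least 21.8-fold above null luminal cells by probe 2 and at least 16.2-fold by probe 3, a bound set against the lowest detected signals because the luminal arrays were not well above background.

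Mfap4, a microfibril-associated protein of the fibrinogen family that binds elastin, was at 8.97, 8.86 and 8.35 in WT stromal and 9.29, 9.48 and 9.15 in null stromal cells. It was detected on replicate 1 alone of WT luminal cells (4.89) and replicate 2 alone of WT basal cells (5.26), and on 0 of the 6 null luminal and null basal arrays. Null stromal cells lay at least 20.5-fold above null basal and at least 21.5-fold above null luminal cells, and WT basal cells, with 1 of 3 arrays detected, fell by 3.89 ± 0.30 from WT stromal cells (limma, adjusted p = 3.51e-08). Mfap5, the gene of MAGP-2, a second fibrillin-binding glycoprotein, was at 9.6, 9.51 and 9.91 in WT stromal and 9.54, 10.01 and 9.89 in null stromal cells. WT basal arrays were at 5.31, 5.6 and 5.88, and null basal arrays at 4.34, 4.53 and 4.78, none of them detected. These levels overlapped neither each other nor any stromal array, and null stromal cells lay at least 29.1-fold above null basal cells. Mfap5 fell by 4.07 ± 0.55 from WT stromal to WT basal cells (limma, adjusted p = 1.42e-05) and by 4.69 ± 0.55 to WT luminal cells (limma, adjusted p = 2.6e-06).

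Fbln2 encodes fibulin-2, a matrix glycoprotein that binds fibrillin and tropoelastin, and its 3 probes correlated at 0.911 to 0.974 over the 24 arrays. Probe 1 was at 9.69, 9.37 and 9.42 in WT stromal, 8.07, 8.23 and 8.35 in WT basal and 6.83, 6.91 and 5.42 in WT luminal cells. In null cells it was at 9.87, 9.56 and 9.47, at 8.92, 8.51 and 8.86, and at 6.58, 4.98 and 6.57 in the same populations. The stromal, basal and luminal arrays were separate in each genotype, and every null basal array was above every WT basal array. Probe 3 showed the same separation, with 7.89, 7.71 and 7.82 in WT basal and 8.45, 8.21 and 8.32 in null basal cells. Probe 2 was more spread, at 6.72, 6.09 and 7.55 in WT basal and 7.77, 7.45 and 7.51 in null basal cells, and overlapped. From luminal to basal cells probes 1, 2 and 3 rose by 1.83 ± 0.41, 1.79 ± 0.44 and 1.51 ± 0.25 in WT cells (limma, adjusted p = 0.00391, 0.00759 and 0.000276). The rise in null cells was 2.72 ± 0.41, 2.71 ± 0.44 and 2.10 ± 0.25 for the same probes (limma, adjusted p = 0.000115, 0.000216 and 1.05e-05). Without WT basal replicate 3, probe 2 no longer passed in WT cells (limma, adjusted p = 0.0555). From WT stromal to WT basal cells probes 1, 2 and 3 changed by -1.27 ± 0.41, -1.35 ± 0.44 and -1.08 ± 0.25 (limma, adjusted p = 0.0375, 0.0378 and 0.00451). The call of probe 1 was lost without any array of either group (adjusted p from 0.0636 to 0.113) and that of probe 2 without WT basal or WT stromal replicate 1, WT basal replicate 2 or WT stromal replicate 3 (adjusted p from 0.0905 to 0.188). Neither passed with no filter on dim probes (limma, adjusted p = 0.0654 and 0.0674). Between basal and stromal cells of null mice, probes 1 and 2 did not pass, with changes of -0.87 and -0.96 (limma, adjusted p = 0.159 and 0.137), whereas probe 3 fell by 0.76 ± 0.25 (limma, adjusted p = 0.0392), a call lost without any null basal replicate or without null stromal replicate 1 or 3 (adjusted p from 0.055 to 0.147). Fbln5, whose product fibulin-5 brings elastin to the microfibril and binds Loxl1 in mice, gave 4.30 to 4.53 on all 24 arrays, none above background, so its level was not measured by this probe.

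**Figure D2:**
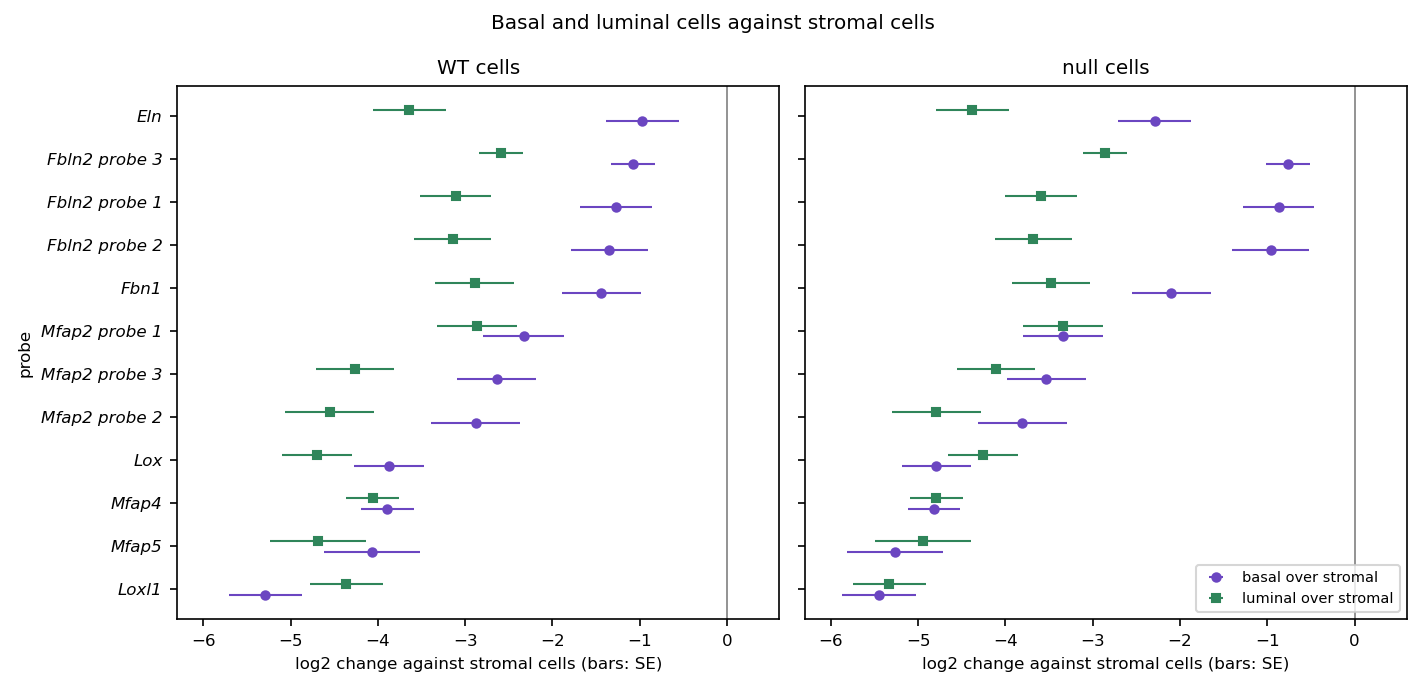
Log2 change of basal (circles) and luminal (squares) cells against stromal cells of the same genotype (horizontal axis) for the 12 tested probes, with bars of 1 SE and zero as a vertical line; WT cells on the left and null cells on the right. The basal and luminal points lie apart for Eln, Fbn1 and Fbln2 in each panel, and both lie at -3.87 or lower for Lox, Mfap4, Mfap5 and Loxl1.

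Counted over the 12 tested probes, 7 were higher and 0 lower in WT basal than in WT luminal cells, from the 4 genes Eln, Fbn1, Fbln2 and Mfap2. Of all tested probes 6.84% were higher and 13.6% passed in either direction in that comparison. The members' median change was 1.48 and that of all probes was 0. Leaving out WT luminal replicate 1, WT basal replicate 1 or WT luminal replicate 3 left 4 probes each time, those of Eln and Fbln2. Within the positive side of the third principal component 6 probes passed, 5 higher and, lower, Loxl1 (-1.36, adjusted p = 0.00976), and within the negative side, where WT luminal and WT basal cells have 1 array each and its spread is taken from the other groups, 0 passed. Eln had a basal over luminal change of 2.58 within the positive and 2.84 within the negative side. Against WT stromal cells, 11 of 12 probes were lower in WT basal cells, beside 8.69% of all probes (10 within the positive and 4 within the negative side), and all 12 were lower in WT luminal cells, beside 11.4%. In null cells 4 of 12 were higher in basal than in luminal cells, beside 5.63% of all probes, and these were Eln and the 3 probes of Fbln2. The counts lower than in null stromal cells were 10 of 12 in basal and 12 of 12 in luminal cells, beside 10.3% and 12.1% of all probes.

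Markers of other cell types were also compared between basal and luminal cells. Of the 8 fibroblast genes 0 were higher and 1 (Dcn, decorin) was lower in WT basal than in WT luminal cells, with a median change of -0.14, and their summed level was 2334 to 3428 in WT basal and 3808 to 4193 in WT luminal arrays. In null cells the summed fibroblast level was 1257 to 1797 in basal and 2206 to 3607 in luminal arrays, again with 0 of 8 genes higher in basal cells. The 7 endothelial genes (Pecam1, Cdh5 and others) all had positive changes from WT luminal to WT basal cells, with a median of 0.44 and 0 past the threshold, 0 of them at an unadjusted p below 0.05 (limma), and they summed to 310.2 to 1374 in WT basal and 324.4 to 715.1 in WT luminal arrays. Of the 6 pericyte genes 5 had positive changes, with a median of 0.15, 0 higher and 1 lower past the threshold (limma), and sums of 552.5 to 1043 in WT basal, 603.4 to 882.1 in WT luminal and 1229 to 1675 in WT stromal arrays. Of the 4 adipocyte genes Lep alone was higher in WT basal than in WT luminal cells, by 1.38 ± 0.29 (limma, adjusted p = 0.0025). Lep was detected on 0 WT luminal arrays, so the fitted size of this change is limited by background. The part of fibroblasts, or of any other of these cell types, in the basal levels was not tested. Each of the 8 fibroblast genes was detected on at least 1 array of every group, the sorted epithelial groups included. In RNA from many cells, fewer cells of a type and less RNA per cell cannot be told apart.

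**Figure D3:**
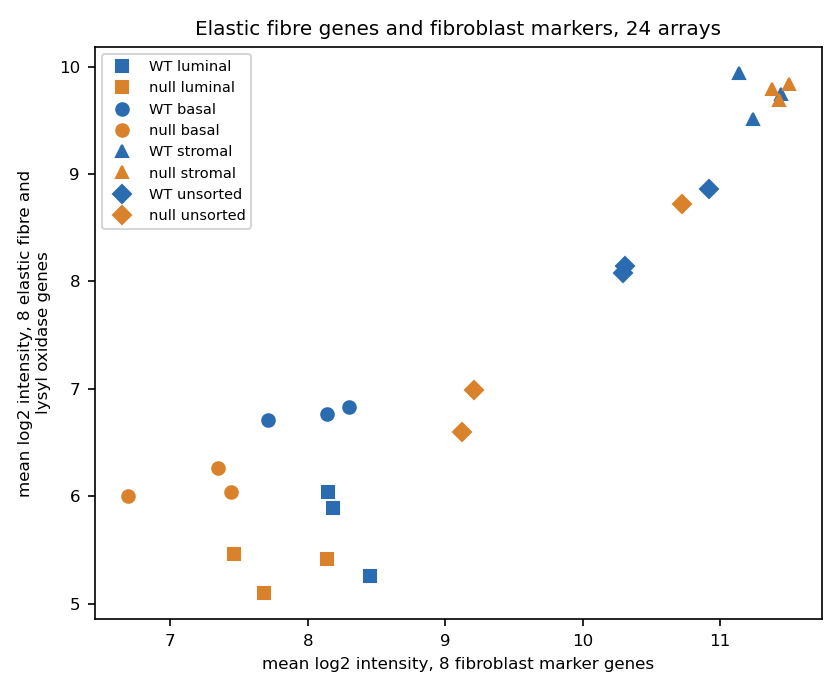
Mean log2 intensity of the 8 tested elastic fibre and lysyl oxidase genes (vertical axis) against that of 8 fibroblast markers (horizontal axis); each point is 1 of the 24 arrays, with shape for the population and colour for the genotype. WT basal arrays lie at 6.77, 6.83 and 6.71 on the vertical axis and 8.14, 8.30 and 7.71 on the horizontal axis, and null unsorted replicate 3 lies at 8.72 and 10.72, beside the WT unsorted arrays.

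Unsorted cells lay between stromal and epithelial cells for most of the genes. Relative to WT stromal cells, 6 of 12 probes were lower in WT unsorted cells (Lox, Loxl1, Mfap4 and the 3 probes of Mfap2), beside 3.06% of all probes. That count was 2 without WT unsorted replicate 1 or without WT unsorted replicate 2, and 3 without WT stromal replicate 1. With the replicate number as a block 8 probes passed, with Eln at -1.36 (limma, adjusted p = 0.0137) and Fbln2 probe 2 at -1.21 (limma, adjusted p = 0.0397) added. A fit of these 6 arrays alone gave 0 probes past the threshold. In null unsorted cells all 12 probes were lower than in null stromal cells, beside 9.37% of all probes, and their changes ran from -3.10 for Mfap2 probe 1 to -1.45 for Fbln2 probe 3.

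Null and WT cells were compared within each population to ask whether loss of Slug went with a change in these genes. In basal cells, where Slug is known to be made, 0 of 12 probes passed, beside 0.666% of all probes. An unadjusted p below 0.05 (limma) was found for 4 of 12, and for 1348 of all 17878 probes. The changes ran from -1.56 to 0.79, with a median of -0.62, and 9 were negative. Eln had the largest, -1.56 ± 0.42 with a 95% interval from -2.42 to -0.69 (limma, adjusted p = 0.116), and its null arrays (6.90 to 7.13) lay wholly below its WT arrays (8.12 to 8.88). Mfap2 probes 2 and 3 changed by -1.09 ± 0.51 and -1.11 ± 0.45, Mfap5 by -1.05 ± 0.55, Lox by -0.91 ± 0.40 and Fbn1 by -0.80 ± 0.45, none past the threshold (limma, adjusted p from 0.508 to 0.775). The 3 Fbln2 probes pointed the other way, at 0.55 ± 0.41, 0.79 ± 0.44 and 0.52 ± 0.25 (limma, adjusted p = 0.927, 0.766 and 0.672). The groups did not overlap for 9 of the 12 probes, 2 higher and 7 lower in null cells, beside 13% of all probes. Of those lower, Mfap4 and Mfap2 probe 1 were detected on 1 of 3 WT and 0 of 3 null basal arrays. Mfap5 was detected on 0 of 3 null basal arrays, so for these probes the difference lies near background. The count is of probes and not of genes: Mfap2 probes 1 and 3 were both lower, and the 2 higher were both of Fbln2. Within the positive side of the third principal component the Eln change was -1.70, and within the negative side -1.13. With arrays weighted by their fit, Eln passed, at -1.69 with an adjusted p of 0.00297 (limma), and in the other 17 alternatives its change was between -1.79 and -1.13 and did not pass.

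Markers of other cell types moved in both directions between null and WT basal cells. Of the 8 luminal epithelial genes 7 had positive changes, with a median of 0.72, 1 past the threshold and 5 at an unadjusted p below 0.05 (limma), and they summed to 3960 to 6253 in null and 2892 to 3545 in WT basal arrays. The 1 past the threshold was Cldn7, the gene of the tight junction protein claudin-7, at 2.89 ± 0.30 (limma, adjusted p = 8.41e-06). The fibroblast genes had a median change of -0.84 in null over WT basal cells, with 8 of 8 negative, 0 past the threshold and 4 at an unadjusted p below 0.05 (limma), and their summed level was 1257 to 1797 in null and 2334 to 3428 in WT arrays. The 7 endothelial genes had a median change of -1.25 with 7 of 7 negative, 0 past the threshold and 5 at an unadjusted p below 0.05, summing to 188.8 to 343 in null and 310.2 to 1374 in WT basal arrays. Cdh5, Kdr, Tek and Tie1 were detected on 0 null basal arrays. Of 4 adipocyte genes tested, Lep, the gene of leptin, fell by 1.31 ± 0.29 (limma, adjusted p = 0.0398), and the 4 summed to 449.3 to 565.4 in null and 619.6 to 2055 in WT basal arrays. Lep was detected on 0 null basal arrays, so the fitted size of its fall is limited by background. The pericyte genes had a median change of -0.23, summing to 361.3 to 449.3 in null basal arrays, and the macrophage genes had a median change of -0.12. The part of these cells in the values of Eln and the other genes was not tested.

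In stromal cells, where the genes were brightest, 0 of 12 probes passed, beside 0.0224% of all probes. An unadjusted p below 0.05 (limma) was found for 0 of 12, and for 811 of all 17878 probes. The changes lay between -0.24 for Eln and 0.58 for Mfap4, with a median of 0.08. The 95% interval for Lox ran from -0.82 to 0.84 and that for Loxl1 from -0.86 to 0.91. In luminal cells 0 of 12 passed, beside 0.00559%, and the 2 with an unadjusted p below 0.05 were Eln at -0.98 ± 0.42 and Loxl1 at -0.94 ± 0.42 (limma, adjusted p = 1 for each). Over all 17878 probes 612 had such an unadjusted p in luminal cells.

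In unsorted cells 0 of 12 probes passed, beside 0.257% of all probes, although all 12 changes were negative, with a median of -0.92. An unadjusted p below 0.05 (limma) was found for 6 of them, and for 1984 of all 17878 probes. Eln was at 8.19, 8.43 and 7.99 in WT and 6.21, 6.19 and 7.97 in null unsorted arrays. Mfap5 was at 7.75, 8.11 and 9.26 in WT and 5.59, 6.47 and 9.0 in null unsorted arrays. Replicate 3 of the null group thus stood with the WT arrays. Without it 4 probes passed (limma): Loxl1 at -1.87, Eln at -2.0, Fbn1 at -2.05 and Mfap5 at -2.34, with adjusted p of 0.0024, 0.00362, 0.00332 and 0.00123. Over all 17878 probes 656 then passed, 529 of them lower, beside 46 with it. Replicate 3 was singled out by its levels of these same genes, so the 4 calls are not independent of that choice. WT unsorted replicates 1 and 2 also lay on the other side of the third principal component from every null unsorted array. The fibroblast markers likewise put null replicate 3 with the WT arrays, with summed levels of 5306 and 5649 in null replicates 1 and 2, 15680 in null replicate 3 and 12050 to 17700 in WT arrays. Macrophage genes were lower in null unsorted cells for 4 of 7 genes tested (C1qa, C1qb, C1qc and Csf1r), and summed to 245.4 to 673.9 in null and 994.6 to 2098 in WT arrays. The endothelial and pericyte genes were negative for 7 of 7 and 6 of 6, each with a median of -0.57, 0 past the threshold and 2 at an unadjusted p below 0.05 (limma). The endothelial genes summed to 1373 to 1560 in null and 1418 to 2906 in WT unsorted arrays, and the pericyte genes to 745.8 to 1224 and 1663 to 2189. The luminal epithelial genes were positive for 6 of 8, with a median of 0.66, 0 past the threshold and 4 at an unadjusted p below 0.05 (limma), and summed to 11770 to 14770 in null and 6941 to 9397 in WT unsorted arrays. The part of these cells in the unsorted result was not tested.

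**Figure D4:**
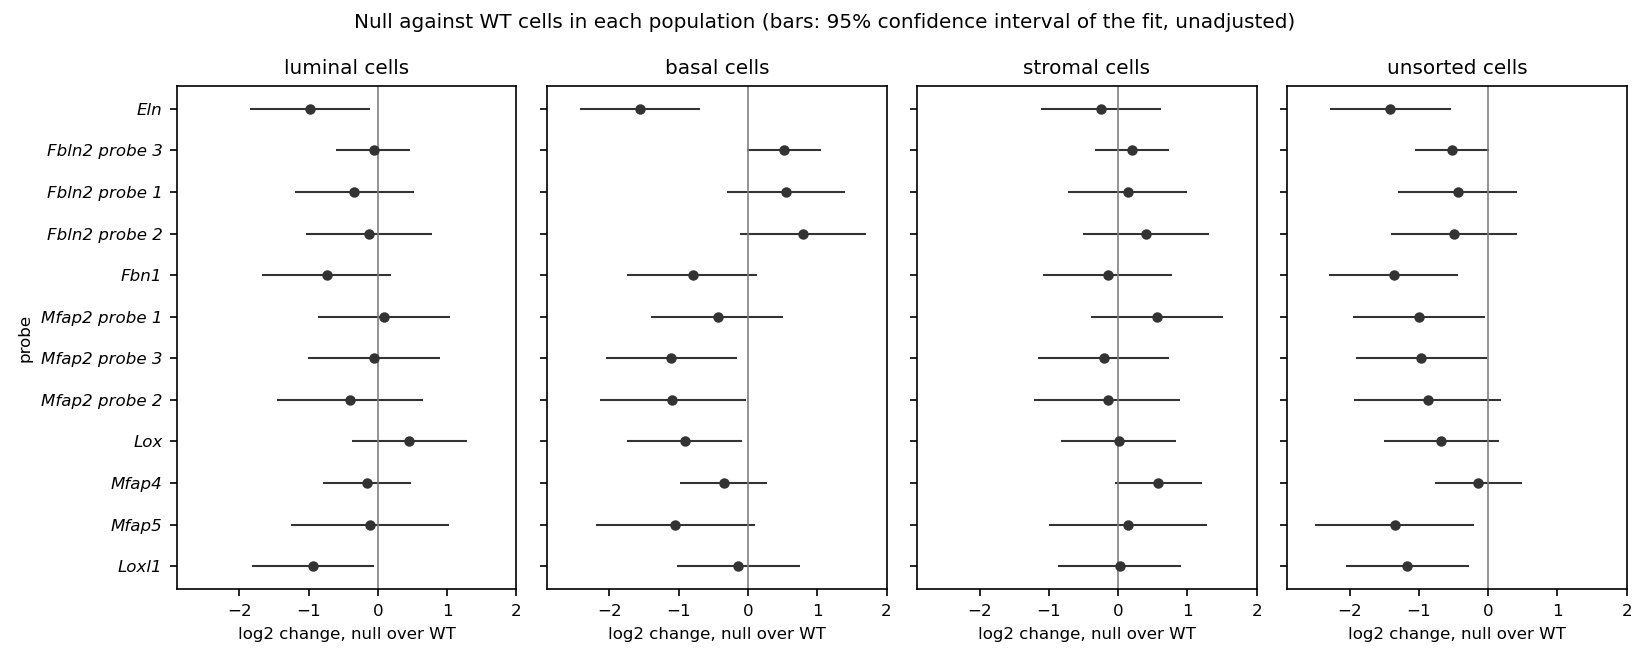
Log2 change of null over WT cells (horizontal axis) for the 12 tested probes in luminal, basal, stromal and unsorted cells, from left to right, with 95% confidence intervals of the fit before adjustment and zero as a vertical line. Eln lies at -0.98, -1.56, -0.24 and -1.41, and the 3 Fbln2 probes lie above zero in basal and stromal cells and below it in luminal and unsorted cells.

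The difference between the null effects of 2 populations was tested as well, and 0 of 12 probes passed in each of 3 such comparisons (limma), with 1, 2 and 0 at an unadjusted p below 0.05 for basal minus luminal, basal minus stromal and luminal minus stromal cells. Beside these, 0.151%, 0.145% and 0.00559% of all probes passed, in the same order. An unadjusted p below 0.05 (limma) was found for 716, 939 and 519 of all 17878 probes. For Eln, basal minus stromal was -1.31 ± 0.59 (limma, adjusted p = 0.889). For Lox, basal minus luminal was -1.36 ± 0.56 (limma, adjusted p = 1), its null effect being -0.91 in basal and 0.45 in luminal cells. The different directions of Fbln2 and Eln in basal cells concern 2 genes and were not tested against each other.

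Other genes of elastic fibre assembly and crosslinking were taken as a list of 28, of which 24 were tested. In WT basal over luminal cells their median change was 0.26, and that of all probes was 0. There 6 of the 24 were higher, beside 6.84% of all probes, and 0 were lower. They were Hspg2, the basement membrane proteoglycan perlecan (1.82 ± 0.38, limma, adjusted p = 0.00221), Plod2 and Plod1, lysyl hydroxylases that prepare collagen for crosslinking (1.78 ± 0.43 and 0.96 ± 0.30), Ltbp4, which binds latent TGF-beta and fibulin-5 (1.33 ± 0.30), the proteoglycan Bgn (1.21 ± 0.25), and Bmp1, a protease that activates lysyl oxidase (0.80 ± 0.24). Against WT stromal cells 15 of 24 were lower in WT luminal cells, beside 11.4% of all probes. In WT basal cells 10 of 24 were lower than in WT stromal cells, beside 8.69% of all probes. The latter were led by Efemp1, the gene of fibulin-3 (-4.49 ± 0.53), and Emilin2, an elastin microfibril interface protein (-4.09 ± 0.42). Ltbp1, another latent TGF-beta binding protein, changed by -2.04 ± 0.46 and Fbln1, the gene of fibulin-1, by -1.87 ± 0.35 from WT stromal to WT basal cells. In null cells 6 of 24 were higher in basal than in luminal cells, beside 5.63% of all probes. Vcan, the proteoglycan versican, was at least 6.82-fold higher in null basal cells, the luminal arrays being not well above background. Between null and WT cells 0 of 24 passed in any of the 4 populations (limma), and 5, 2, 0 and 8 had an unadjusted p below 0.05 in luminal, basal, stromal and unsorted cells. Of all 17878 probes, 612, 1348, 811 and 1984 had such an unadjusted p, in the same order.

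Of 6 enzymes that degrade elastin or collagen, Mmp2, a gelatinase, was higher in basal than in luminal cells, by 2.07 ± 0.37 in WT (limma, adjusted p = 0.000508) and 2.38 ± 0.37 in null cells (limma, adjusted p = 0.000154). Ctsk, the gene of cathepsin K, fell by 4.78 ± 0.53 and Mmp2 by 1.84 ± 0.37 from WT stromal to WT basal cells (limma, adjusted p = 1.63e-06 and 0.00111), and the other 4 enzymes did not pass there. Between null and WT cells 0 of 6 enzymes passed in any population (limma), and 3 had an unadjusted p below 0.05 in unsorted cells and 0 in each of the others. In unsorted cells 1984 of all 17878 probes had such an unadjusted p.

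Profiles of the members were correlated over the 24 arrays. These correlations describe arrays that share their population and the replicate structure above. Lox and Mfap5 had the highest correlation among the 28 pairs of members, at 0.986, and Loxl1 and Fbln2 the lowest, at 0.666. Lox, Loxl1, Mfap4 and Mfap5 correlated with one another at 0.962 to 0.986, and Eln and Fbn1 at 0.948. Mfap2 correlated with both kinds of gene, at 0.879 to 0.920 with Lox, Loxl1, Mfap4 and Mfap5 and at 0.911, 0.899 and 0.807 with Fbn1, Eln and Fbln2. The mean profile of the members was ranked against 12670 genes, with the members, the other assembly genes and the degrading enzymes left out beforehand. It was most like those of Olfml3 (0.983), Col5a2 (0.981), Srpx (0.980), Pcolce (0.979) and Ndn (0.979). For single members the ranking, over 12707 other genes, kept all of these in. The gene most like Loxl1 was Emilin2 (0.983), the gene most like Eln was Hspg2 (0.964), and the gene most like Fbn1 was Ppap2b (0.972). Closest to Fbln2 was 1100001I19Rik (0.951), closest to Mfap2 was Cd109 (0.967), and closest to Mfap4 was Ifi205 (0.980).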

How the data were processed

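Per the labels, total RNA of 24 samples was labelled with biotin, and the arrays are Illumina bead arrays. The authors deposited a linear intensity for every probe, neither normalized nor background-subtracted by its range, and beside it a detection p-value, per the file headers. Earlier steps are not stated in the labels. A second deposited table of intensity values, which differed from a quantile normalization of the first by at most 0.0718 (log2), served only as an alternative.

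Groups and replicate numbers were taken from the labels. Background, inferred from detection p-values, was corrected and the arrays normalized with neqc (offset 16) of limma 3.58.1 in R 4.3.3. Probes detected at p below 0.05 on at least 3 of 24 arrays were kept, 17878 of 25697. All 24 arrays entered a single lmFit model of group means, tested with eBayes in 15 comparisons: null against WT in 4 populations, pairs of populations within each genotype, and differences of null effects. P-values are two-sided, with Benjamini-Hochberg adjustment over all tested probes of a comparison, and a probe passed at an adjusted p below 0.05. With 3 arrays a group, log2 changes between groups had a median SE of 0.301, and differences of null effects had one of 0.426. The fit was tested on simulated data. Where the dimmer group was detected on 0 arrays, the fold is a lower bound against the higher, per array, of the probe's own signal and the lowest detected signal.

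All members were named with every probe. Of the other assembly genes and degrading enzymes, up to 4 with the largest change among those past the threshold were named per comparison, and the rest of a small count after their values were seen. A gene of a list or profile was represented by its brightest tested probe. The members and gene lists were chosen with earlier results of these data known. Marker lists were fibroblast, pericyte, endothelial, macrophage, adipocyte, basal and luminal epithelial genes. Same-numbered WT and null samples of a population had deviations correlated at -0.225 to 0.291, with 7 of 12 over 0.1, so numbers were not taken to pair them. Same-numbered null populations correlated at -0.083 to 0.334, with 6 of 18 over 0.1. All 6 were among luminal, basal and stromal cells, whose values ran from 0.08 to 0.334. Those with unsorted cells ran from -0.083 to 0.08, so numbers were not taken to pair the null populations as a whole. Same-numbered WT populations correlated at 0.169 to 0.496, with 18 of 18 over 0.1. The sample names repeat a number across the populations of a genotype, but the labels used here do not say that it marks a shared animal or preparation. The main fit did not pair by number, and blocked values stand beside the WT population results whose call they change. Alternatives were no background correction, offset 50, the second table, median scaling, no filter, 1 probe per gene, only the arrays compared, array weights, the replicate number as a block, the side of the third principal component as a term or a subset, and leaving out each array.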

Additional observations from a re-analysis of the deposited data

How the results depend on the processing

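Over 3372 values of single probes under alternative settings, 3220 kept their side of the threshold and 107 were no longer past it. A further 45 were newly past it, and 0 reversed a call. The 3220 include values whose sign changed while neither setting passed. Lox in null over WT stromal cells, for example, kept its direction in 11 of 18 alternatives. Of the 12 probes, the count higher in WT basal than in WT luminal cells went from 7 to 4 with 1 probe per gene and to 0 within the negative side of the third principal component, and ranged from 4 to 6 with an array left out. The count lower in WT basal than in WT stromal cells went from 11 to 7 with 1 probe per gene and to 4 within the negative side, and ranged from 8 to 10 with an array left out. For WT unsorted against WT stromal cells the count of 6 became 3 with no filter, 0 with only the arrays compared, 10 with array weights, 11 within the positive and 0 within the negative side, and ranged from 2 to 7 with an array left out. In null cells, basal over luminal went from 4 to 2 with 1 probe per gene. Fewer probes of a gene are tested with 1 probe per gene, and fewer arrays within a side or with only the arrays compared; the cause of the other moves was not tested. Array weights gave 1 probe, Eln, in null over WT cells in the basal population (-1.69, adjusted p = 0.00297) and 1, Eln again, in the unsorted population (-1.55, adjusted p = 0.0197), where leaving out an array gave 0 to 4. With the replicate block, null over WT had 0 probes past the threshold in all 4 populations, WT basal over luminal had 7 and WT unsorted over stromal 8, and no count of these 12 probes moved by over 1.5 times, while over all probes null over WT luminal cells and the luminal minus stromal null effect each went from 1 to 0. Among WT populations the block changed the calls of Eln and Fbln2 probe 2 given above and no other. Among null populations, whose numbers were not taken to pair the samples as a whole, Fbn1 basal over luminal passed with the block (limma, 1.39, adjusted p = 0.0375). In all, 20 of 24 arrays correlated best with an array of their own number. Over all probes, the count for null over WT ranged over the alternatives from 1 to 889 in basal cells (main 119), 0 to 656 in unsorted cells (main 46), 0 to 9 in stromal cells (main 4) and 0 to 2 in luminal cells (main 1). For the differences of null effects it ranged from 0 to 57 (main 27), 0 to 62 (main 26) and 0 to 4 (main 1). Within the negative side, WT basal over luminal had 532 probes (main 2434) and WT unsorted over stromal 50 (main 1293). Probes detected on 0 arrays of a group, such as Mfap4 in null epithelial cells, limit a fold to a bound.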
